A study of Arabidopsis thaliana with 23 samples.

Results

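The DNA methylation genes MET1, CMT3, DRM2, DDM1, KYP, ROS1, MOM1 and IBM1 and the DNA-methylated, silenced loci FWA and SDC were examined for H4ac and H3K27me3 in Arabidopsis seedlings. These 10 genes were taken by locus identifier from 37899 nuclear genes of the annotation by a rule that names the loci and uses no measured value. The value of a gene in a library was the highest fold enrichment over input among the peaks whose summit, the position of the highest signal, lay inside the gene, and it was 0 where no summit did. H4ac is acetylation of the tail of histone H4, read with an antibody against the tetra-acetylated tail, and H3K27me3 is trimethylation of lysine 27 of histone H3, the mark of Polycomb repression.

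Chromatin came from whole seedlings of axe1-5, a mutant of the histone deacetylase HDA6, and of its wild type, the DR5 line in the Col-0 background (WT). Seedlings 12 days old were moved to plates with 50 µM methyl jasmonate (MeJA) or to mock plates and sampled after 3 h, which gave treated WT (WT +MeJA), untreated axe1-5, treated axe1-5 (axe1-5 +MeJA) and, as the reference for each, untreated WT. Each condition had 2 independent biological replicates per mark, except WT +MeJA for H3K27me3, of which 1 library (replicate 2) was analysed here. The 8 H4ac libraries held between 3235473 tags (WT replicate 2) and 14717755 tags (axe1-5 +MeJA replicate 2) after filtering, and the 7 H3K27me3 libraries between 577986 (WT +MeJA replicate 2) and 8879066 (axe1-5 replicate 1).

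Arabidopsis methylates cytosines in CG sites through MET1, in CHG sites mainly through CMT3, which binds the histone H3 lysine 9 methylation laid down by KYP, and at new sites through DRM2, which small RNAs guide. DDM1 is the chromatin remodeller that opens heterochromatin to these enzymes, ROS1 removes methylated cytosine again, MOM1 keeps loci silent downstream of methylation, and IBM1 strips lysine 9 methylation from gene bodies. FWA, a homeodomain gene of the endosperm that delays flowering when it is active in the plant, and SDC, an F-box gene, are kept silent in seedlings by methylated tandem repeats at their starts, and HDA6 acts with MET1 in silencing.

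The libraries carried the marks expected of green seedlings only in part. H4ac summits lay in CAB1, a chlorophyll-binding protein gene, in 8 of 8 libraries, in RBCS1A, the small subunit of Rubisco, in 5, and in CAB3 in 1. H3K27me3 summits lay in AG, SESA3 and CRU3, a floral and a pair of seed genes, in 7 of 7 libraries, and in the floral gene SEP1 and the meristem gene STM in 6 each. The jasmonate genes were read for H4ac. JAZ10 had 8.55 and 10.7 in WT +MeJA against 3.30 and 3.72 in WT. LOX2 had an H4ac summit in both WT +MeJA libraries and in no WT library. VSP2 had one in 1 of the 2 WT +MeJA libraries and in no WT library. JAZ1 had no H4ac summit in any library, although an H4ac peak overlapped the gene in 8 of 8. In axe1-5 +MeJA none of these 4 genes met the rule of gain given below for H4ac, against axe1-5 or against WT. JAZ10 had H4ac values of 5.35 and 8.03 in axe1-5 +MeJA against 3.52 and 6.46 in axe1-5. LOX2 had 0 and 0 against 3.49 and 0, and VSP2 had 0 and 8.10 against 0 and 0. For H3K27me3, LOX2 met the rule in axe1-5 +MeJA against WT, where 12.3% of the genes with a summit did. HDA6 itself had an H4ac summit in all 8 libraries, and axe1-5 keeps the gene, so its peak does not check the genotype. The samples are whole seedlings, so that fewer cells with a mark and less of it per cell cannot be told apart.

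The repeats of the silenced loci are given first, because the peaks below are described by their distance from them. The sequences were read from the TAIR10.1 assembly, whose nuclear chromosomes carry the TAIR10 coordinates of the peak lists, and capitals mark CG sites, the substrate of MET1. FWA (AT4G25530, chr4:13038360-13042464, plus strand) has a short repeat of 38 bases, found identical in 38 of 38 positions at a distance of 45, which starts at −111 from the annotated gene start. A long repeat follows at a distance of 211 bases and starts at −25, with 119 of 124 compared positions identical.
FWA short repeat, first copy, chr4:13038249-13038286, plus strand: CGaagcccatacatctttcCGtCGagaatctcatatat
FWA short repeat, second copy, chr4:13038294-13038331, plus strand: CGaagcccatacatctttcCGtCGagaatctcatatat
SDC repeat tract, chr2:7681918-7682075, plus strand: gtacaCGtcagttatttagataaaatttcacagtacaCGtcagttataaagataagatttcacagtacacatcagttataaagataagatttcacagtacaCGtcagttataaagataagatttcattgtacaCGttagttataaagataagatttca

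SDC (AT2G17690, chr2:7682162-7684083, plus strand) has its tract of units of 32 bases at −244 to −87 from the start, with 118 of 126 compared positions identical. The longest run of bases that recurs without a mismatch at a distance of 30 to 250 bases, searched in 750 bases around the start, was 63 bases in FWA and 38 bases in SDC. Runs as long as that of FWA occurred at 0.109% of 27438 protein-coding genes, and runs as long as that of SDC at 0.572%. The 8 other genes had runs of 9 to 13 bases. CG sites did not set FWA or SDC apart: the window from 250 bases before to 50 after the start held 10 in FWA and 8 in SDC, counts reached by 21.4% and 35.3% of all such windows, and 14 in MET1, reached by 7.09%.

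H4ac at FWA was listed in axe1-5 +MeJA and in no other condition. FWA had a fold enrichment of 5.63 and 7.07 in the 2 axe1-5 +MeJA libraries, against 0 in both WT libraries, and it was also 0 in both axe1-5 and both WT +MeJA libraries. Both peaks were low for their libraries, at the 8.0th and 5.5th percentile of the genes with a summit. FWA thus met the rule of gain, which asks in both replicates for a value where the reference library of the same number has none or for a value at least 2 times as high. It met it against WT, against axe1-5 and against WT +MeJA, and in each case under all 13 alternatives tried. Where the references hold 0, another fold threshold, division by the list median or leaving out a replicate cannot undo a gain. Only alternatives that change which peaks count could have done so, such as a minimum score or equal list lengths.

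The acetylated part of FWA was its 3′ end, not its repeats. The summits lay 3262 and 3266 bp after the gene start, in a coding exon at 79.5% and 79.6% of the gene's length, 4 bp apart between replicates. The peaks began 2149 and 2230 bp after the start, which is 1839 and 1920 bp past the end of the repeated stretch, and ran 184 and 318 bp past the end of the gene, into AT4G25540, which overlaps the 3′ end of FWA on the minus strand. The sequence under the higher summit, with 50 bases on either side, is printed for comparison with the repeats and holds 2 CG sites in 101 bases, against 3 in the 38 bases of each short repeat.
FWA at the H4ac summit of axe1-5 +MeJA replicate 2, chr4:13041576-13041676, plus strand: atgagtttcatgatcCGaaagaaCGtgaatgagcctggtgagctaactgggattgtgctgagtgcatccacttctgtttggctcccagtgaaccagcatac

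Among the 19351 genes with an H4ac summit in any library, 567 (2.93%) shared this pattern, with a summit in both axe1-5 +MeJA libraries and none in the other 6, and 318 of them had a mean at least as high as that of FWA. The axe1-5 +MeJA libraries were also the deepest, at 10569841 and 14717755 tags against 5927987 and 3235473 in WT. Scaled to the depth of WT +MeJA replicate 2, the 303 and 446 tags of the FWA peaks would be 282.1 and 298.2 tags, and 32.0% and 37.7% of the peaks listed in that library held fewer. Scaled to WT replicate 2, the shallowest, they would be 92.7 and 98.0 tags, and 34.6% and 41.5% of its peaks held fewer. Tags were not scaled to peak length. The FWA peaks were 2140 and 2193 bp long, against list medians of 1628 bp in WT +MeJA replicate 2 and 1456 bp in WT replicate 2. Whether such peaks would be listed at these depths was not tested.

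FWA was the only one of the 10 genes with an H3K27me3 summit. The fold enrichment was 6.48 and 5.13 in axe1-5 +MeJA and 5.69 and 0 in axe1-5, against 0 and 0 in WT, and it was 0 in the WT +MeJA library. FWA therefore gained H3K27me3 by the rule in axe1-5 +MeJA, where 12.3% of the genes with a summit did, but not in axe1-5, where 3.42% did. In WT +MeJA, where 9.97% of genes did in the single replicate, none of the 10 genes gained the mark.

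The H3K27me3 summits of FWA lay 1512 and 1472 bp after the start in axe1-5 +MeJA and 1732 bp after it in axe1-5, upstream of the H4ac summits. In axe1-5 replicate 1 and axe1-5 +MeJA replicate 2 the peaks were 4225 and 4030 bp long and covered the repeats and most of the gene. In axe1-5 +MeJA replicate 1 the peak was 780 bp long and began 909 bp past the repeats. The estimated fragment length was 282 and 209 bp in the libraries with the long peaks and 52 to 61 bp in the other 5 H3K27me3 libraries, and its part in the peak lengths was not tested. WT replicate 2 held 8681380 tags and listed no peak at FWA. The libraries of axe1-5 +MeJA, which did, held 5464316 and 5540663. The lowest fold enrichment in the whole list was 4.63 in WT replicate 2, and 1.93 and 2.33 in axe1-5 +MeJA. The part of depth and of these lowest values in the missing peak was not tested. The remaining libraries without a peak were shallow, at 577986 to 1976886 tags. When all H3K27me3 lists were reduced to the number of peaks of the shortest, 2348, the FWA gain was lost.

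FWA was thus 1 of 175 genes that gained both marks in axe1-5 +MeJA against WT. These were 5.62% of the genes that gained H4ac and 21.5% of those that gained H3K27me3.

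**Figure D1:**
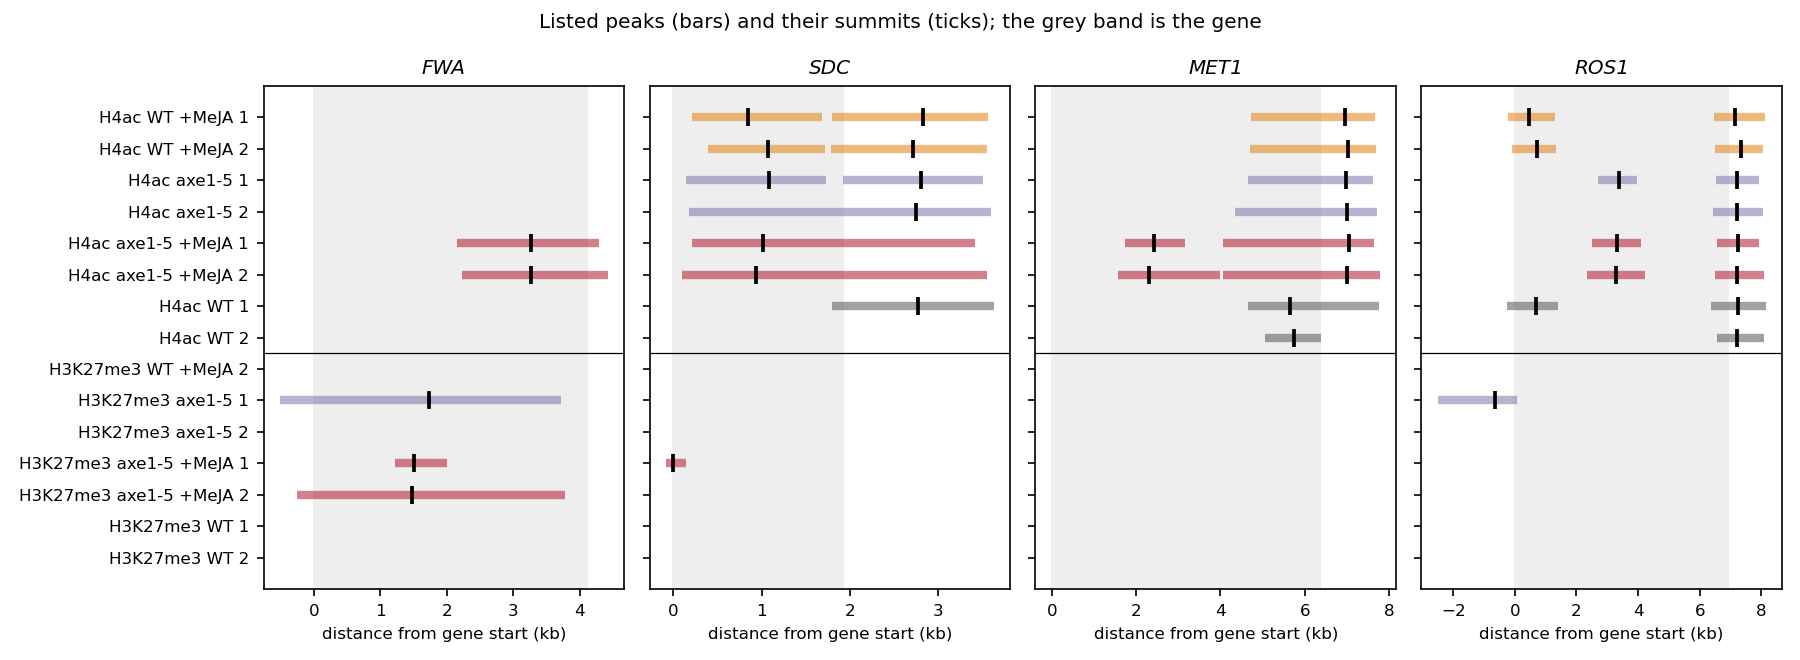
Peaks listed at FWA, SDC, MET1 and ROS1 in each of the 15 libraries, as bars along the distance from the gene start in kb, with summits as ticks and the gene as a grey band. The H4ac peaks of FWA sit only in the 2 axe1-5 +MeJA rows at its 3′ end, MET1 has a mid-gene peak only in axe1-5 +MeJA, while beside the peak at its 3′ end in all 8 H4ac rows ROS1 has one near the start in 3 of 4 WT rows and one in mid-gene in 3 of 4 axe1-5 rows.

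SDC had H4ac summits in all conditions but untreated WT. The values were 5.00 and 6.02 in WT +MeJA, while axe1-5 had 5.94 and 0 and axe1-5 +MeJA had 8.48 and 12.3, against 0 and 0 in WT. By the rule both MeJA conditions gained H4ac at SDC, and axe1-5 did not. With MeJA, both axe1-5 libraries were above both WT libraries, but by less than 2-fold in replicate 1, so that the rule was not met between them. Such a separation was seen at 19.8% of genes with a summit in these conditions.

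A neighbouring gene overlaps SDC, and it bears on these values. All SDC summits, 841 to 1079 bp after the start, lay in coding sequence that is also covered by AT2G17695. Peaks with their summit 2711 to 2830 bp after the SDC start, in AT2G17695 alone, were listed in both WT +MeJA libraries, both axe1-5 libraries and WT replicate 1. When any overlapping peak was counted, SDC had 11.5 and 12.2 in WT +MeJA, while axe1-5 had 5.94 and 7.63 and axe1-5 +MeJA had 8.48 and 12.3, against 6.05 and 0 in WT, and neither gain held. In axe1-5 +MeJA and in axe1-5 replicate 2 one peak of 3199 to 3446 bp spanned both genes, and its summit lay in SDC in axe1-5 +MeJA and in AT2G17695 in axe1-5. No H4ac peak reached the repeat tract, the nearest starting 187 bp past its end in axe1-5 +MeJA replicate 2. For H3K27me3 a single peak of 223 bp touched SDC, in axe1-5 +MeJA replicate 1, with 4.86 at a summit at −3 bp from the start.

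MET1, the CG maintenance methyltransferase (AT5G49160, chr5:19932114-19938470, plus strand), changed in where its summit lay rather than in whether it had a peak. Its value was 4.69 and 5.84 in axe1-5 +MeJA and 0 in all 4 libraries of WT +MeJA and axe1-5, against 4.49 and 5.96 in WT. By the rule it lost H4ac in WT +MeJA, where 0.847% of genes did, and in axe1-5, where 1.46% did, and it gained it in axe1-5 +MeJA against axe1-5 and against WT +MeJA. A peak at the 3′ end of MET1 was nevertheless listed in all 8 libraries. Its summit lay in MET1, 5644 and 5740 bp after the start, in WT, and past the end of MET1 in the next gene, AT5G49170, in the 6 other libraries, 6965 to 7040 bp after the MET1 start. With any overlapping peak counted, MET1 had 6.00 and 8.68 in WT +MeJA, while axe1-5 had 7.18 and 8.69 and axe1-5 +MeJA had 7.93 and 15.1, against 4.49 and 5.96 in WT, and every one of these calls of loss and gain ended.

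The axe1-5 +MeJA libraries had in addition a peak in the middle of MET1, with summits 2422 and 2307 bp after the start in a coding exon. These peaks were weak, with scores (minus 10 times the log10 of the peak caller's p) of 56.3 and 94.3 and values at the 2.3rd and 1.2nd percentile of genes with a summit. Scaled to the depth of WT +MeJA replicate 1, the 175 tags of replicate 1 would be 144.0, and 1.54% of that library's peaks held fewer. The 424 tags of replicate 2 would be 250.6, and 30.4% held fewer. Scaled to axe1-5 replicate 2, the 175 and 424 tags would be 119.6 and 208.1. Of the peaks listed there, 0.136% and 37.1% held fewer, and the smallest held 113. Tags were not scaled to peak length, which was 1407 and 2427 bp here, against list medians of 1663 bp in WT +MeJA replicate 1 and 1780 bp in axe1-5 replicate 2. Whether such peaks would be listed at these depths was not tested.

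KYP, the histone H3 lysine 9 methyltransferase SUVH4 (AT5G13960, chr5:4501362-4506250, plus strand), had H4ac in all 4 MeJA-treated libraries and in 1 of the 4 untreated ones. The values were 9.89 and 9.58 in WT +MeJA against 4.98 and 0 in WT, and 10.4 and 11.9 in axe1-5 +MeJA against 0 and 0 in axe1-5. The groups did not overlap within either genotype. MeJA-treated libraries likewise lay above untreated ones at 77.0% of genes with a summit in WT and at 28.7% in axe1-5. KYP gained H4ac by the rule in axe1-5 +MeJA, both against axe1-5 and against WT, and missed the rule in WT +MeJA because replicate 1 was less than 2-fold higher. All 5 summits lay 281 to 317 bp after the start, but the peaks began upstream of the gene, at positions 4499678 to 4499853 of chromosome 5. In the 3 libraries without one, the nearest listed peak was 580 to 682 bp past the other end of the gene, in AT5G13970. The nearest summit before the start of KYP lay 5717 and 5739 bp away in axe1-5 and 14213 bp away in WT replicate 2, so that none was listed in AT5G13950, the gene next to KYP on that side.

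The 2 KYP peaks of axe1-5 +MeJA had high fold enrichment but scores of 90.6 and 90.4, so that both gains were lost with a minimum score of 100 or with equal list lengths, and that against WT also with a threshold of 3-fold or values divided by the list median. The 343 and 357 tags of the WT +MeJA peaks, scaled to axe1-5 replicate 2, would be 284.7 and 262.0, and 66.7% and 59.8% of the peaks listed there held fewer. Tags were not scaled to peak length, which was 2596 and 2454 bp here, against a list median of 1780 bp in axe1-5 replicate 2.

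CMT3, the CHG methyltransferase (AT1G69770, chr1:26248118-26253687, minus strand), had a summit in all 8 H4ac libraries, at its 3′ end. The values were 5.65 and 6.34 in WT +MeJA, while axe1-5 had 3.19 and 7.74 and axe1-5 +MeJA had 6.55 and 8.57, against 3.66 and 4.11 in WT. The summits lay 4622 to 5182 bp after the start, at 83.0% to 93.0% of the gene's length, and no other H4ac summit lay in the gene. Among 5801 protein-coding genes of at least 3000 bp with an H4ac summit, 5.91% had all their summits more than 2000 bp from the start, and the median distance was 349 bp. Its values were low in every library, between the 1.6th and 23.3rd percentile of genes with a summit.

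DRM2, the de novo methyltransferase (AT5G14620, chr5:4715105-4718704, minus strand), had a summit 156 to 261 bp after the start in all 8 libraries. The values were 10.2 and 11.3 in WT +MeJA, while axe1-5 had 7.21 and 8.00 and axe1-5 +MeJA had 7.46 and 9.31, against 5.92 and 4.32 in WT. All 3 conditions lay above WT without overlap, and WT +MeJA lay above both axe1-5 conditions. Among all genes with a summit, WT +MeJA lay above WT without overlap at 77.0%, axe1-5 at 31.3% and axe1-5 +MeJA at 55.9%. At 25.6% axe1-5 +MeJA lay below WT +MeJA without overlap.

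MOM1, the silencing factor (AT1G08060, chr1:2501704-2511084, minus strand), had 10.1 and 10.6 in WT +MeJA, while axe1-5 had 6.40 and 10.7 and axe1-5 +MeJA had 10.9 and 12.8, against 5.69 and 7.27 in WT, at summits in its 5′ UTR 213 to 269 bp after the start. The axe1-5 libraries overlapped the WT range, and both MeJA conditions lay above it.

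IBM1, the lysine 9 demethylase (AT3G07610, chr3:2425884-2433113, plus strand), had the highest value of the 10 genes in both WT +MeJA libraries, with 13.9 and 13.3, while axe1-5 had 8.48 and 10.6 and axe1-5 +MeJA 10.8 and 11.8, against 6.46 and 7.78 in WT. Its summits lay in coding sequence 314 to 417 bp after the start in all 8 libraries.

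ROS1, the DNA glycosylase that demethylates DNA (AT2G36490, chr2:15307907-15314807, minus strand), had 4.75 and 5.14 in WT +MeJA, while axe1-5 had 3.65 and 0 and axe1-5 +MeJA had 5.16 and 6.78, against 3.21 and 0 in WT. These values were all below the 5th percentile of genes with a summit, and ROS1 met the rule in no comparison. The position of the summit followed the genotype. It lay 3306 and 3291 bp after the start in axe1-5 +MeJA and 3392 bp after it in axe1-5, in coding sequence at 47.7% to 49.2% of the gene, against 459 and 711 bp in WT +MeJA and 679 bp in WT. No library had both peaks. Of 3625 protein-coding genes of at least 3000 bp with a summit in 3 or more libraries of each genotype, 5 (0.138%), ROS1 among them, had every axe1-5 summit at least 2000 bp further from the start than every WT summit, and none had the opposite. This measure was chosen after the ROS1 values were seen, and only 1 of the 6 ROS1 peaks had a score above 100. A peak with its summit in the next gene, AT2G36480, reached into the 3′ end of ROS1 in all 8 libraries. For H3K27me3, 1 peak overlapped ROS1, in axe1-5 replicate 1, with 4.74 at a summit upstream of the gene, at −645 bp from the start. With summits up to 1000 bp upstream counted, WT replicate 1 had 10.41 and axe1-5 +MeJA replicate 2 had 5.01, so the mark there was not confined to the mutant.

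DDM1, the remodeller (AT5G66750, chr5:26648897-26653191, plus strand), had no summit of either mark. Peaks of its neighbours reached both its ends, with summits in AT5G66740 at −638 to −583 bp from its start and in AT5G66760 at 4898 to 5018 bp from it, in 7 of 8 H4ac libraries, WT replicate 2 being the exception.

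**Figure D2:**
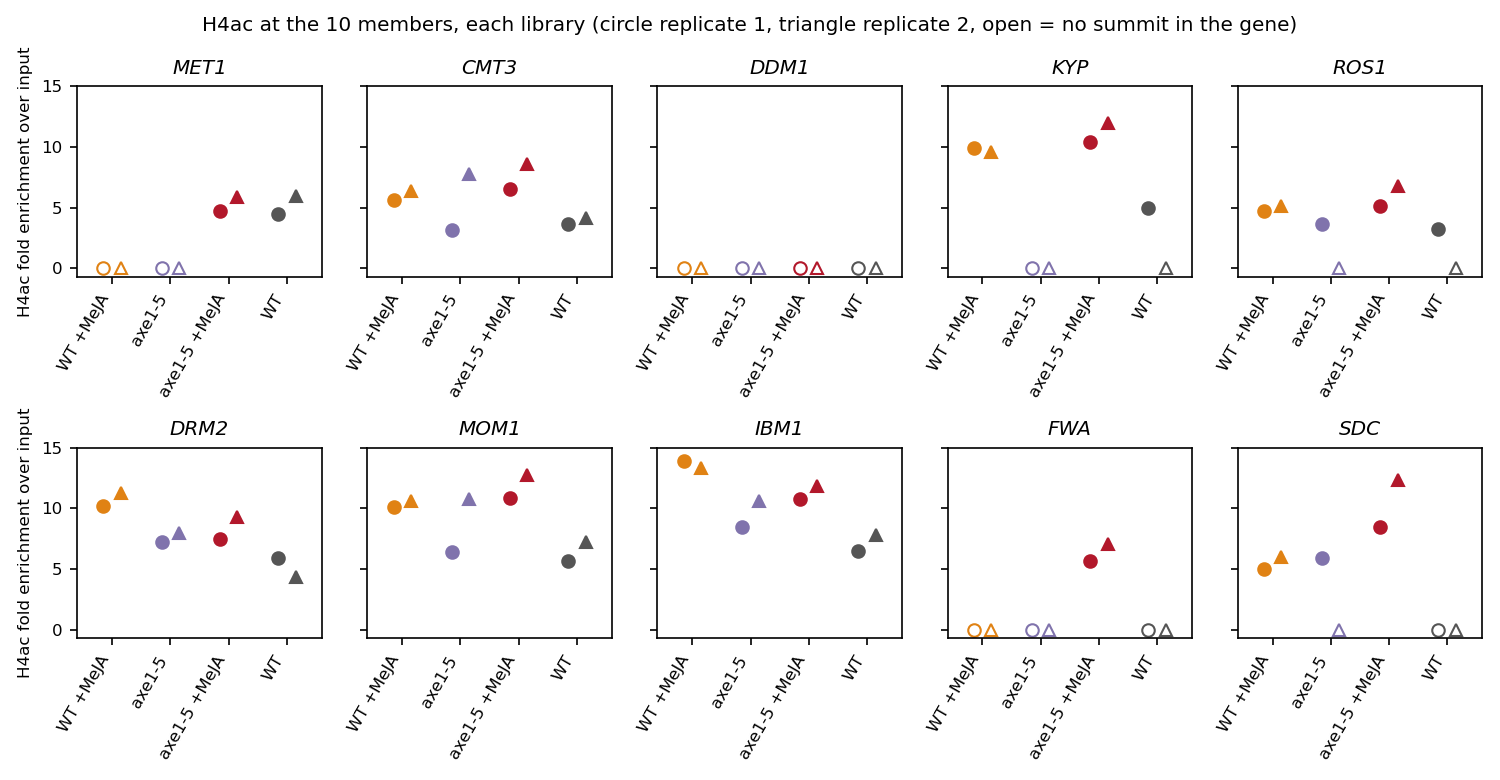
H4ac fold enrichment over input of each of the 10 genes in the 8 libraries, by condition, with replicate 1 as a circle, replicate 2 as a triangle and an open symbol at 0 for no summit. FWA is above 0 only in axe1-5 +MeJA, KYP in all 4 MeJA-treated libraries and 1 other, and DRM2, MOM1 and IBM1 in all 8.

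The counts are read against the genes with a summit in either condition compared, which include 8 of the 10 genes in WT +MeJA and in axe1-5 and 9 in each comparison of axe1-5 +MeJA. In WT +MeJA 1 of 8 (SDC) gained H4ac, against 10.2% of all genes with a summit. In axe1-5 none of 8 did, against 8.23%. In axe1-5 +MeJA 3 of 9 did (KYP, FWA and SDC), against 17.1%. Against axe1-5, 3 of 9 did in axe1-5 +MeJA (MET1, KYP and FWA), against 5.08%, and against WT +MeJA 2 of 9 did (MET1 and FWA), against 8.41%. No member lost H4ac in axe1-5 +MeJA, whether set against WT, axe1-5 or WT +MeJA, where 3.91%, 3.65% and 7.46% of genes did. Complete separation from WT was common among all genes. In WT +MeJA 7 of the 8 lay above WT without overlap, against 77.0% of genes with a summit. In axe1-5, 2 of 8 did (DRM2 and IBM1), against 31.3%, and in axe1-5 +MeJA 8 of 9 did, against 55.9%.

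For the 4 genes with a summit in every H4ac library, CMT3, DRM2, MOM1 and IBM1, the conditions could be compared after each library had been centred on its median over the 8227 such genes. In this linear model (limma, Benjamini-Hochberg adjusted over 8227 genes, call at an adjusted p under 0.05) none of the 4 passed in any comparison. The share of genes that passed was 0.0122% in WT +MeJA against WT, 0.693% in axe1-5 against WT, 4.8% in axe1-5 +MeJA against WT, 0.0851% in axe1-5 +MeJA against axe1-5 and 2.18% in axe1-5 +MeJA against WT +MeJA. For the difference of the MeJA effects between genotypes it was 0%, with 666 genes at an unadjusted p under 0.05.

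At an unadjusted limma p under 0.05, 2 of the 20 differences of these 4 genes were reached. Of all 8227 genes, 705 reached it in WT +MeJA against WT and 1192 in axe1-5 +MeJA against WT +MeJA. The highest such count was 1586, in axe1-5 +MeJA against WT. DRM2 was higher in WT +MeJA than in WT by 0.42 ± 0.21 (log2, SE, limma adjusted p = 0.577), and CMT3 was higher in axe1-5 +MeJA than in WT +MeJA by 0.42 ± 0.20 (adjusted p = 0.335). The differences of MOM1 lay between 0.02 and 0.30 and those of IBM1 between −0.17 and 0.27 on the log2 scale. As deposited, without centring, DRM2 was higher in WT +MeJA than in WT by 1.09 (adjusted p = 0.0188) and IBM1 by 0.94 (adjusted p = 0.0283), while CMT3 was higher in axe1-5 +MeJA than in WT by 0.95 (adjusted p = 0.0228) and MOM1 by 0.87 (adjusted p = 0.0359). Under that setting 29.8% of all genes passed in WT +MeJA against WT and 21.1% in axe1-5 +MeJA against WT. The library medians of log2 fold enrichment that centring removes were 3.41 and 3.54 in WT +MeJA and 3.22 and 3.53 in axe1-5 +MeJA, against 2.69 and 2.91 in WT. With 2 libraries against 2, no two-sided exact permutation test of a single gene could go below 0.33.

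**Figure D3:**
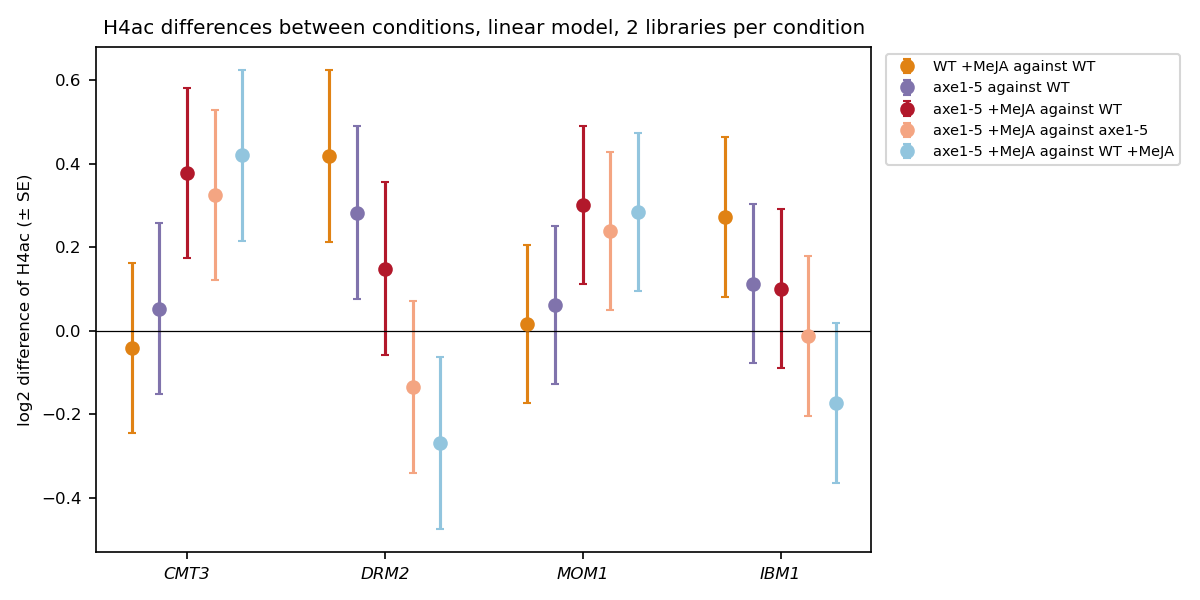
Log2 differences in centred H4ac between conditions for CMT3, DRM2, MOM1 and IBM1, as points with standard errors from the linear model over 8227 genes (2 libraries per condition). All 20 differences lie within 0.42 of 0 to 2 decimals, and none passed the adjusted threshold.

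Most other genes of the DNA methylation pathway had an H4ac summit in some library, as did 65.3% of all protein-coding genes. Of 9 further maintenance genes 6 did, of 16 genes of RNA-directed DNA methylation 15, of 4 demethylation genes 4 and of 3 silencing genes 3. In WT +MeJA the rule of gain took 1 of these 32 genes (NRPD1, the largest subunit of RNA polymerase IV), in axe1-5 it took 2 (NRPD1 and DCL3, the dicer of the pathway) and in axe1-5 +MeJA it took 2 (DCL3 and AGO6, an Argonaute), where it took 10.2%, 8.23% and 17.1% of all genes with a summit. The 32 include genes without a summit in the libraries compared. Those with one were, in WT +MeJA and in axe1-5, 5 of the 9 maintenance genes, 15 of the 16 of RNA-directed DNA methylation, and all demethylation and silencing genes. In axe1-5 +MeJA they were the same in number except for 4 maintenance genes. IDN2, a protein that binds double-stranded RNA, had 0 in the 6 libraries of the other conditions, against 5.00 and 7.61 in WT, and so met the rule of loss in each of the 3 conditions. A peak overlapped IDN2 in all 8 libraries, so that as at MET1 it was the summit that lay outside the gene: with any overlapping peak counted IDN2 had 9.78 and 9.29 in WT +MeJA, 5.48 and 9.02 in axe1-5 without MeJA and 10.5 and 12.8 in axe1-5 +MeJA, against 5.00 and 7.61 in WT. SAHH1, which clears the by-product of methyl transfer, had 0 and 0 in axe1-5 +MeJA, against 5.69 and 4.60 in WT, and was lost there, with no overlapping peak either. It had 6.44 and 6.47 in axe1-5 and 7.74 and 6.73 in WT +MeJA.

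In the linear model 1 of the further pathway genes passed, in 1 comparison. AGO6 had 7.82 and 8.52 in axe1-5 +MeJA against 4.50 and 5.14 in WT +MeJA, a difference of 0.86 ± 0.19 (log2, SE, limma adjusted p = 0.00703). The call was lost without centring (0.76, adjusted p = 0.999), and with any overlapping peak counted the difference was −0.01 (adjusted p = 0.994). It was also lost without WT +MeJA replicate 1 (0.83, adjusted p = 0.0906) and without axe1-5 +MeJA replicate 1 (0.77, adjusted p = 0.195).

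Among 9 other loci listed as silenced by DNA methylation or imprinted, H4ac summits were found in 2, QQS and PHE1. The DNA methylation of these loci was not measured here. QQS, a gene silenced by methylated repeats near its start, had 8.06 and 11.9 in axe1-5 without MeJA and 10.6 and 13.6 in axe1-5 +MeJA, against 0 in all 4 WT libraries with and without MeJA. It gained H4ac in both axe1-5 conditions against WT under all 13 alternatives, of which, as at FWA, only those that change which peaks count could have undone it. This pattern of a summit in all 4 axe1-5 libraries and no WT library was shared by 407 genes (2.10%). Unlike FWA, then, QQS had a listed H4ac summit in the mutant without MeJA as well. PHE1, an imprinted gene, had 5.40 and 8.65 in axe1-5 +MeJA and 3.80 and 0 in axe1-5, against 0 and 0 in WT, and gained H4ac in axe1-5 +MeJA, a gain that ended with a minimum score of 100 and with equal list lengths. SUP, BNS, MEA, FIS2, MPC and the loci AT4G08680 and AT4G03650 had no H4ac summit in any library. At BNS, however, an H4ac peak with its summit outside the gene overlapped it in 8 of 8 libraries.

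H3K27me3 was found at 4 of these 9 loci and at 5 of the 32 pathway genes. SUP, a floral repressor, carried it in all 7 libraries. MEA, a Polycomb subunit of the endosperm, carried it in 6 of 7, WT +MeJA being the exception. FIS2, another such subunit, gained it in axe1-5 +MeJA as FWA did, with 6.48 and 5.02 in axe1-5 +MeJA and 5.42 and 0 in axe1-5, against 0 and 0 in WT. DRM1, the close relative of DRM2, had 4.81 and 10.6 in axe1-5 without MeJA and 5.67 and 5.68 in axe1-5 +MeJA, against 0 and 0 in WT, and gained the mark in both. In the shallow WT +MeJA library, where 64.6% of genes met the rule of loss against WT, so did VIM2, a cofactor of MET1, CMT1, a relative of CMT3, MEA and PHE1. Set against that library, axe1-5 +MeJA gained H3K27me3 at 59.5% of genes, among them FWA, VIM2, CMT1, DRM1, DML3, a relative of ROS1, MEA and FIS2.

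**Figure D4:**
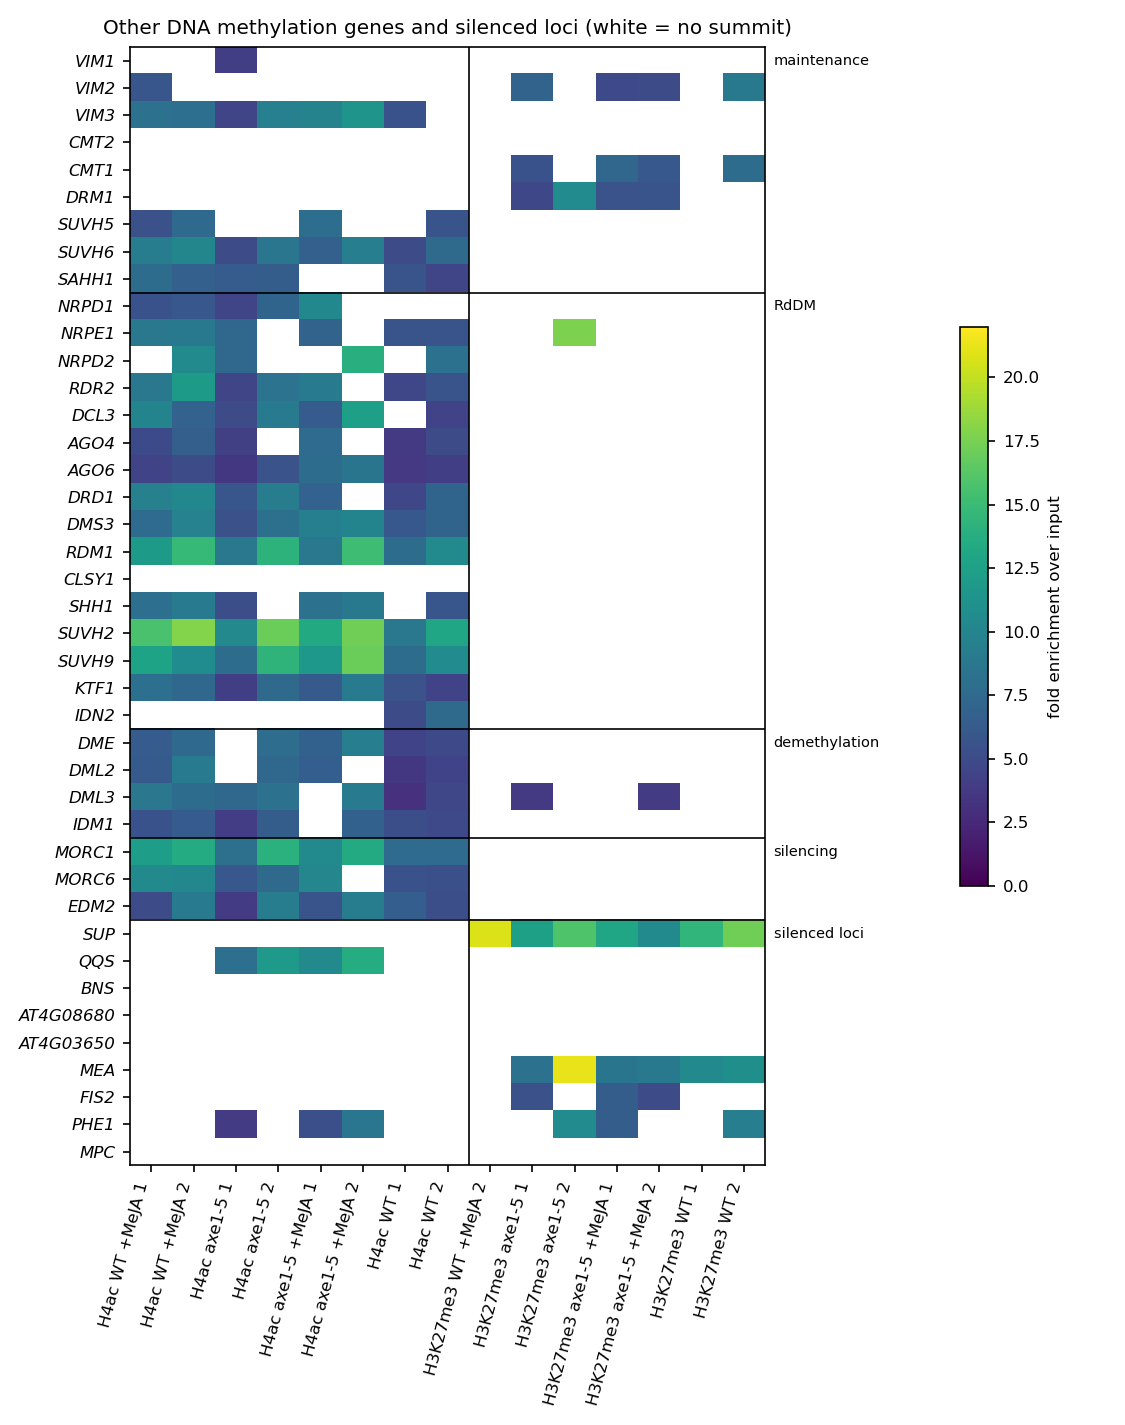
Fold enrichment over input in each of the 15 libraries (columns, H4ac left and H3K27me3 right of the line) for 32 further DNA methylation genes and 9 other silenced loci (rows, grouped by role), with white for no summit. H4ac is spread over the pathway genes, while among the silenced loci an H4ac summit appears only at QQS in the 4 axe1-5 libraries and at PHE1 in 3 of them.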

How the data were processed

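ChIP-seq of H4ac and H3K27me3 in whole seedlings was analysed from the 15 peak lists given, 1 per library, each called against input; input lists were not used here. Per the submitters' processing notes the authors used Trimmomatic 0.36.5, Bowtie and MACS 1.4.2 with TAIR10. The deposited lists hold the count of tags in each peak, its fold enrichment over input (a ratio), its FDR in percent and a score. The header of the score column was lost in the deposited files, and it was read as MACS's minus 10 times log10 of p. Tags are not independent molecules, and these lists show no signal below the caller's threshold, so 0 means no listed summit.

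The 2 organelle peaks were left out. Summits were placed in genes of the TAIR10.1 annotation from RefSeq. A gain needed, in each same-numbered pair of libraries, a value where the reference had none or one at least 2 times as high, after the study's own criterion, and a loss the reverse. For H3K27me3 in WT +MeJA this rested on replicate 2. Genes with a summit in all 8 H4ac libraries were compared with limma 3.58.1 (R 4.3.3) on log2 fold enrichment with no pseudocount, centred on each library's median, with 4 conditions, no block, and adjustment over all 8227 genes. Both scripts were tested on simulated data. All 10 genes are named, and of the 41 other loci those that met the gain or loss rule or passed the model, with the silenced loci. The members, lists and tests were chosen with earlier results of these data known. Alternatives were a minimum score, any overlapping peak, equal list lengths, other fold thresholds, division by the list median, no centring, a replicate block, and leaving out replicates.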

Additional observations from a re-analysis of the deposited data

Results flagged for a closer look

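In 3 of the 10 genes, every replicate pair of one contrast moved opposite to every pair of the other. The differences between contrasts were not tested for MET1, which was not in the linear model. MeJA changed the H4ac fold enrichment of MET1 by 4.69 and 5.84 in axe1-5 and by −4.49 and −5.96 in WT, and 5.89% of the 19351 genes with a summit moved in opposite directions in this way. With any overlapping peak counted the opposite movement was gone, since MET1 then had 6.00 and 8.68 in WT +MeJA against 4.49 and 5.96 in WT, and 7.93 and 15.1 in axe1-5 +MeJA against 7.18 and 8.69 in axe1-5. The same summit values make the change from WT to axe1-5 positive with MeJA, 4.69 and 5.84, and negative without it, −4.49 and −5.96.

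DRM2 was lower in axe1-5 than in WT with MeJA, by −2.76 and −1.96, and higher without it, by 1.29 and 3.68, and 16.2% of all genes with a summit had such opposite pairs. IBM1 was lower in axe1-5 with MeJA, by −3.12 and −1.46, and higher without it, by 2.02 and 2.79, but with values divided by the list median the pairs without MeJA disagreed (0.29 and −0.01). In the linear model the difference of the MeJA effects was −0.55 for DRM2 (log2, limma adjusted p = 0.656) and −0.29 for IBM1 (adjusted p = 0.831).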

How the results depend on the processing

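Of the 10 genes, those with an H4ac gain in WT +MeJA numbered 0 with a minimum score of 100, with any overlapping peak and with equal list lengths, and 5 with a threshold of 1.5-fold. It was 7 in axe1-5 +MeJA against WT with 1.5-fold, and 1 in axe1-5 +MeJA against WT +MeJA with any overlapping peak. The looser 1.5-fold threshold took 36.5% of all genes for WT +MeJA and 32% for axe1-5 +MeJA, each against WT. At 2-fold these shares were 10.2% and 17.1%. With equal list lengths the H3K27me3 gain in axe1-5 +MeJA was 0. Leaving out 1 replicate gave 2 to 4 gains of H4ac in WT +MeJA, 0 to 1 in axe1-5, 3 to 6 in axe1-5 +MeJA against WT, 4 to 5 against axe1-5 and 2 to 3 against WT +MeJA, and for H3K27me3 0 to 1 in axe1-5 and 0 to 1 in axe1-5 +MeJA against axe1-5. With 1 replicate the rule is easier to meet for all genes. The shares with an H4ac gain were then 25.8% to 28.9% in WT +MeJA and 18.4% to 24% in axe1-5. In axe1-5 +MeJA they were 28.7% to 31.7% against WT, 13.5% to 15.2% against axe1-5 and 12.6% to 16% against WT +MeJA. For H3K27me3 the shares were 11.3% to 43.6% in axe1-5 and 24.7% to 36.1% in axe1-5 +MeJA against axe1-5.

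In the linear model, values as deposited gave 2 calls among the 10 genes in WT +MeJA and 2 in axe1-5 +MeJA against WT, where 29.8% and 21.1% of all genes were called. Without centring the sign turned for CMT3 in WT +MeJA (0.626), for DRM2 (0.134) and IBM1 (0.256) in axe1-5 +MeJA against axe1-5, and for the difference of the MeJA effects of CMT3 (−0.033) and MOM1 (−0.177). It also turned for AGO6 in axe1-5 +MeJA against WT +MeJA with any overlapping peak (−0.008), and for IBM1 in axe1-5 +MeJA against axe1-5 with a minimum score of 100 (0.006). Without 1 library at a time, log2 differences that changed sign ranged from −0.05 to 0.073 (MOM1, WT +MeJA). In axe1-5 they ranged from −0.308 to 0.418 (CMT3), −0.065 to 0.619 (DRM2), −0.033 to 0.159 (MOM1) and −0.003 to 0.232 (IBM1). For DRM2 in axe1-5 +MeJA against WT they ranged from −0.206 to 0.48, and in axe1-5 +MeJA against axe1-5 from −0.04 to 0.684 (CMT3), −0.339 to 0.066 (DRM2) and −0.134 to 0.104 (IBM1). None of these was called. The cause of these changes was not tested. A lone library left in a condition was assumed to vary like the others.

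Same-numbered libraries did not deviate together in the centred values, with correlations of −0.048 to 0.028. How the samples were paired in the experiment was not tested, and the rule of gain and loss compares libraries by number. With the replicate block AGO6 kept its difference of 0.859 (adjusted p = 0.0116), and none of the 10 genes was called. Over all genes, H4ac gain took 5.37% to 36.5% in WT +MeJA, while axe1-5 had 5.44% to 24% and axe1-5 +MeJA 12.8% to 32%. Peak lists cannot show differences below the caller's threshold, and WT replicate 2 (H4ac) and WT +MeJA (H3K27me3) were the shallowest libraries.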
